A study of Mus musculus with 3 samples.

Results

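Interferon-stimulated genes were compared among 3 mononuclear phagocyte populations of the healthy mouse, namely peripheral blood monocytes (PBMo), lung macrophages (lung Mϕ) and lung dendritic cells (lung DC). The set was a list of 39 gene symbols, of which 37 were measured with 61 probes among 19087 genes in all, while Dtx3l and Ifi44 were not analysed here. All cells came from untreated wild-type C57BL/6N mice, male and female, between 6 and 9 weeks old, and no group had received an interferon, a virus or any other agent. PBMo were sorted from blood by CD11b and CD115, and both lung populations from collagenase-digested, blood-free lung by CD11c, with high autofluorescence for lung Mϕ and low autofluorescence for lung DC. The labels call the macrophages alveolar, whereas they were sorted from whole lung homogenate by the gate above. A total of 32 mice gave 8 RNA pools of 4 mice for each cell type, hybridized on 12 arrays, 4 for each pair of cell types with the dyes balanced.

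Interferons are secreted proteins that cells release when they sense foreign nucleic acids. They bind receptors that switch on a transcription factor complex with Stat2 and Irf9, which binds the interferon-stimulated response element (ISRE) in the promoters of a large set of genes. The proteins made in turn sense viral RNA, block translation, cut RNA, trap virus particles and switch the signal off again, and a low tonic level of interferon keeps some of them on in healthy tissue. In the lung, macrophages and DC meet inhaled viruses early and are known sources of interferon.

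The deposited values are log2 ratios, 1 for each spot and pair of cell types, written here as Mϕ/PBMo, DC/PBMo and Mϕ/DC. Where a ratio is negative, the transcript was lower in the cell type before the slash. Mϕ/PBMo and DC/PBMo fix Mϕ/DC, with a largest deviation of 1.07e-14, so the ratios are contrasts of the same fit and share their pools. They hold no replicate values, so no test and no error between pools could be computed, and a gene is called lower or higher past 2-fold, a log2 ratio beyond 1 in size. Rows had to be put back in the order of the array. Among 32 layouts the chosen one placed a share of 0.907 of the variance between transcripts with several probes, against 0.413 for the next, and the same layout was chosen when the transcripts of the interferon-stimulated genes were left out. The medians over all spots were -0.00247, -0.00502 and 0.00507 in Mϕ/PBMo, DC/PBMo and Mϕ/DC. All 18 alveolar macrophage markers measured were past 2-fold higher in Mϕ/PBMo, and 13 of 20 DC markers in DC/PBMo with none lower. However, 15 of these 18 were higher in DC/PBMo as well, with a median of 2.42 against 4.99 in Mϕ/PBMo, so lung DC lay between PBMo and lung Mϕ in these markers. Also 10 of 18 NK cell markers were higher in DC/PBMo. Of 14 neutrophil markers 10 were lower in Mϕ/PBMo and 10 in DC/PBMo, not all of them the same genes.

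Interferon-stimulated genes were lower in both lung populations than in PBMo, and lower in lung Mϕ than in lung DC. Of the 37 genes, 33 were more than 2-fold lower in Mϕ/PBMo and none was higher, where 4.49% of all genes were lower and 5.47% higher. The median log2 ratio was -2.26, or 4.80-fold lower, beside 0.00 over all genes, and 22 genes were more than 4-fold lower, where 1.38% of all genes were. In DC/PBMo 18 of the 37 were lower and none higher, where 1.09% of all genes were lower and 4.02% higher. The median was -1.0, and 2 of the genes, Rtp4 and Ifi27l2a, were more than 4-fold lower, where 0.157% of all genes were. In Mϕ/DC 22 of the 37 were lower and none higher, where 4.52% of all genes were lower and 2.74% higher. The median was -1.13, and 6 of the genes were more than 4-fold lower, where 1.33% of all genes were.

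PBMo were highest, lung DC intermediate and lung Mϕ lowest for 34 of the 37 genes, or 91.9%, an order found in 18.4% of all genes. The exceptions were Irf1, Ddx58 and Trim25. The alveolar macrophage markers, given above, place lung DC between the other populations too, and their part in this order was not tested. Neighbours in this order do not all stand apart. Both steps were past 2-fold for 15 genes, or 40.5%, against 0.356% of all genes. These were Gbp3, Ifi27l2a, Ifit3, Igtp, Irf7, Isg15, Isg20, Mx1, Mx2, Oas1a, Oas2, Rsad2, Rtp4, Usp18 and Xaf1. Among the 100 lowest of all 19087 genes, 9 of the 37 genes were found in Mϕ/PBMo, 8 in DC/PBMo and 2 in Mϕ/DC. In sorted bulk RNA a lower share of cells with these transcripts and less of the transcript in each cell cannot be told apart.

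**Figure D1:**
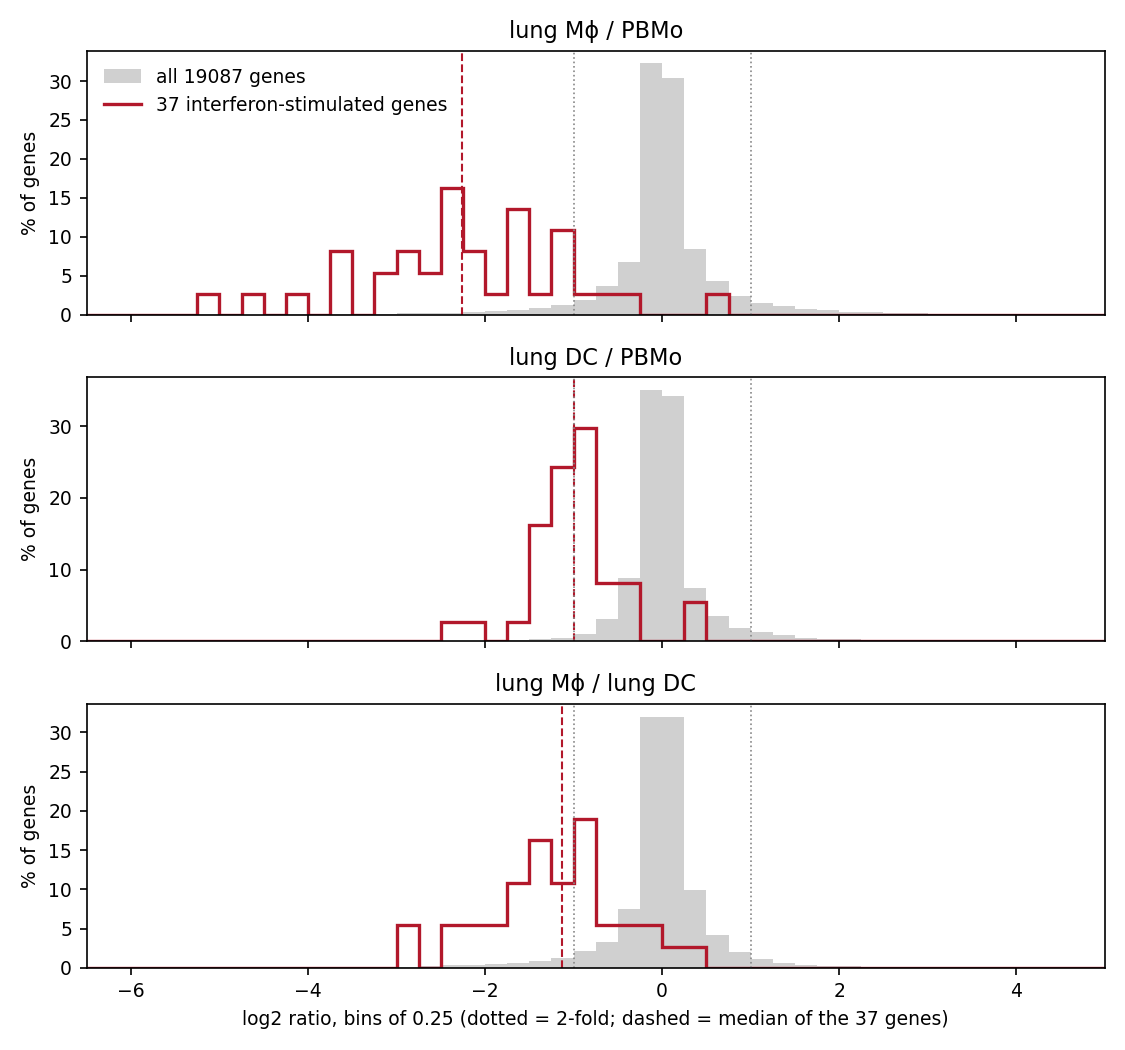
Share of genes (%) by log2 ratio in bins of 0.25 for each comparison, for all 19087 genes (grey) and the 37 interferon-stimulated genes (red line), with their median dashed and 2-fold dotted. The red distribution lies to the left of the grey in each panel, with medians of -2.26, -1.0 and -1.13.

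The genes were set side by side by what they do, each as the mean of its probes. Distances from the PBMo level are shown for every gene in the plot of ratios by role.

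**Figure D2:**
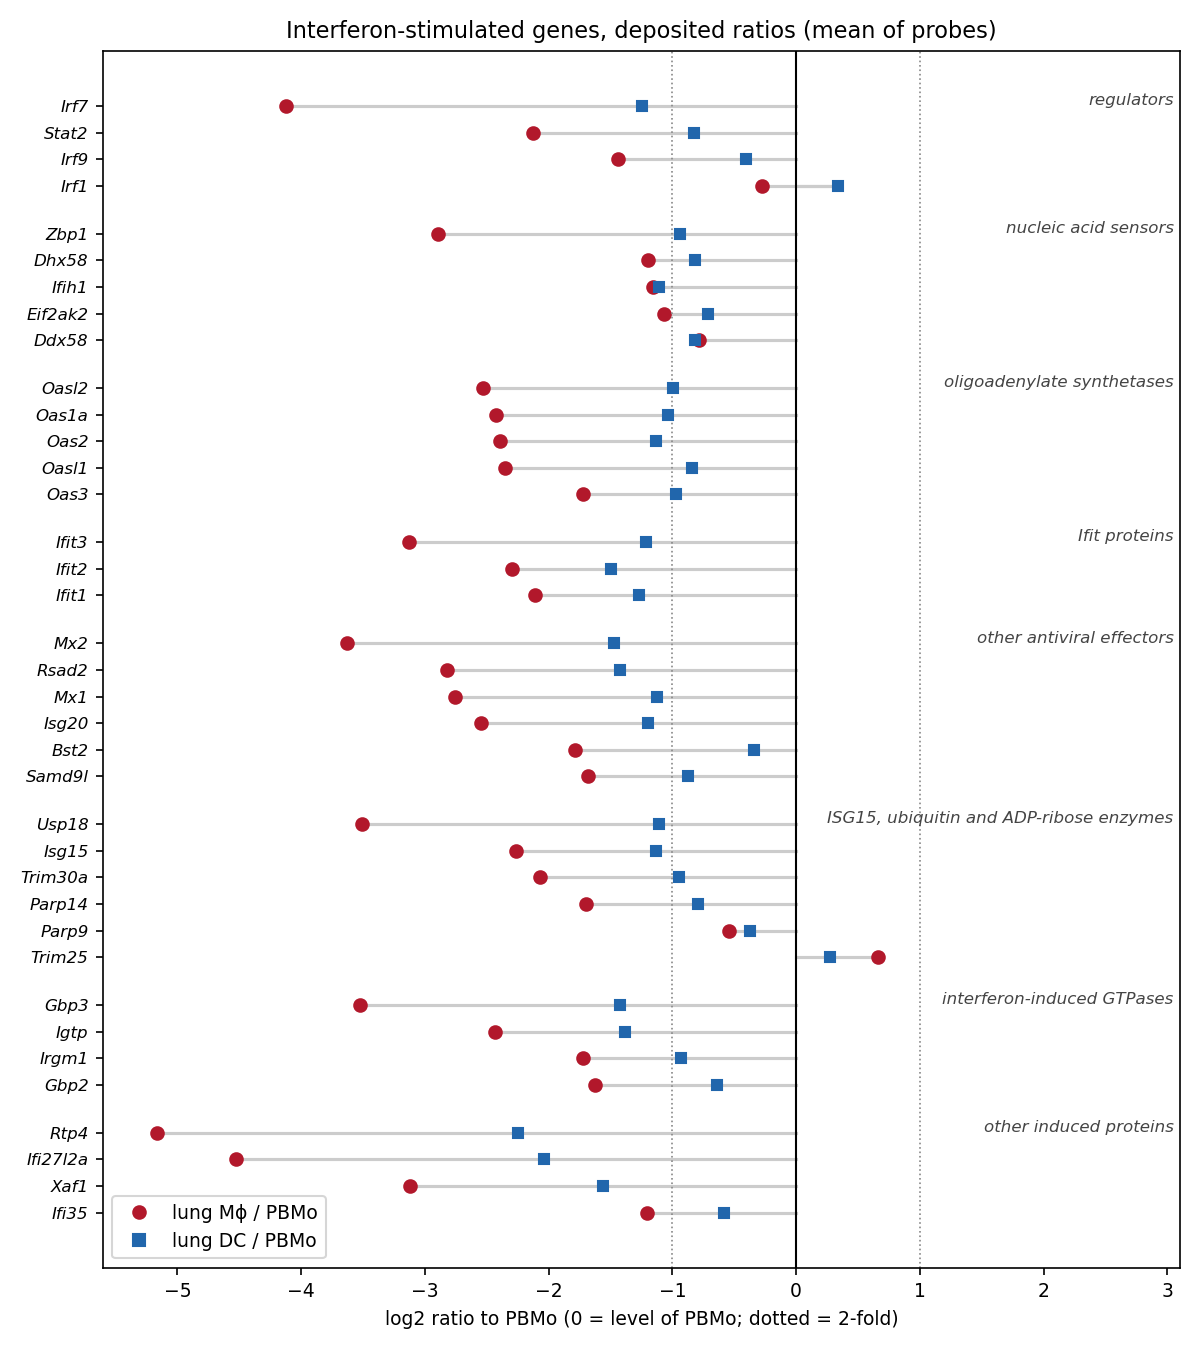
Log2 ratio to PBMo (x axis) of each measured interferon-stimulated gene (y axis, grouped by role), for lung Mϕ (red circles) and lung DC (blue squares), each point the mean of the gene's probes, and the distance between circle and square is Mϕ/DC. Rtp4 reached -5.16 in lung Mϕ, while Ddx58 and Ifih1 have both points nearly on top of each other and Trim25 alone lies above 0 in lung Mϕ.

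Promoters of the set carried the ISRE more often than promoters at large. Promoter sequences of RefSeq were at hand for 29 of the 39 genes, and the motif of GAAA, any 2 bases and GAAA, searched on both strands in the 250 bases before the start, was present in 13 of them, or 44.8%, against 3.46% of 27025 genes with a promoter. The 100 bases shown for 6 genes hold all matches of the gene in this stretch. They were chosen as the gene with the largest ratio among those with a match in its role, and Irf7 as the largest ratio with a promoter but no match. Bases of the motif are in capitals, and where matches overlap the capitals run together. Each is read 5′ to 3′ in the direction of the gene.
Gbp3: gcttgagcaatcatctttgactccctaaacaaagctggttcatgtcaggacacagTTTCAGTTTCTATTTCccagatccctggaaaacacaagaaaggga
Ifit3: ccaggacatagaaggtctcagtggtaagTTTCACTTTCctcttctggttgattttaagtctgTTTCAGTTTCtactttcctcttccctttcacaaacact
Rsad2: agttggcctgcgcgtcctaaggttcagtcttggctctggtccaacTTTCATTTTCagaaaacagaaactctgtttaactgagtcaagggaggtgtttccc
Oas1a: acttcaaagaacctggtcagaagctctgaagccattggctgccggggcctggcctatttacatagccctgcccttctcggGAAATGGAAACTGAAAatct
Isg15: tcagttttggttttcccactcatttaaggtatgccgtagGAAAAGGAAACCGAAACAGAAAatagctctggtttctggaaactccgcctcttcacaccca
Stat2: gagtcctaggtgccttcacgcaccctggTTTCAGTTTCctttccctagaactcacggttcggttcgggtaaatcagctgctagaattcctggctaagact
Irf7: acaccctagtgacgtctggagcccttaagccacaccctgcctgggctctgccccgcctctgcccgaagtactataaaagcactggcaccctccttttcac
On the GRCm38.p6 build, the Gbp3 window is chr3:142559944-142560043 on the plus strand and that of Ifit3 chr19:34583345-34583444 on the plus strand. The Rsad2 window is chr12:26456518-26456617 on the minus strand and that of Oas1a chr5:120907526-120907625 on the minus strand. The Isg15 window is chr4:156200836-156200935 on the minus strand, with 3 overlapping matches between 78 and 57 bases before the start. The Stat2 window is chr10:128270248-128270347 on the plus strand and that of Irf7 chr7:141266425-141266524 on the minus strand. The 13 genes with a match were all more than 2-fold lower in Mϕ/PBMo, with a median of -2.13. Of the 14 measured genes with a promoter but no match 11 were lower, with a median of -1.56 and with Irf7 at -4.12 the lowest of them. The 10 measured genes whose promoter was not searched had a median of -2.83, and 9 of them were lower. In the whole set 33 of 37 genes were lower in this ratio, with or without a match, against 4.49% of all genes. The STAT-binding motif of TTC, any 3 bases and GAA, searched in the same way, was present in 7 of the 29 genes, or 24.1%, against 8.13% of all, and overlapped the first motif in Bst2 alone.

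**Figure D3:**
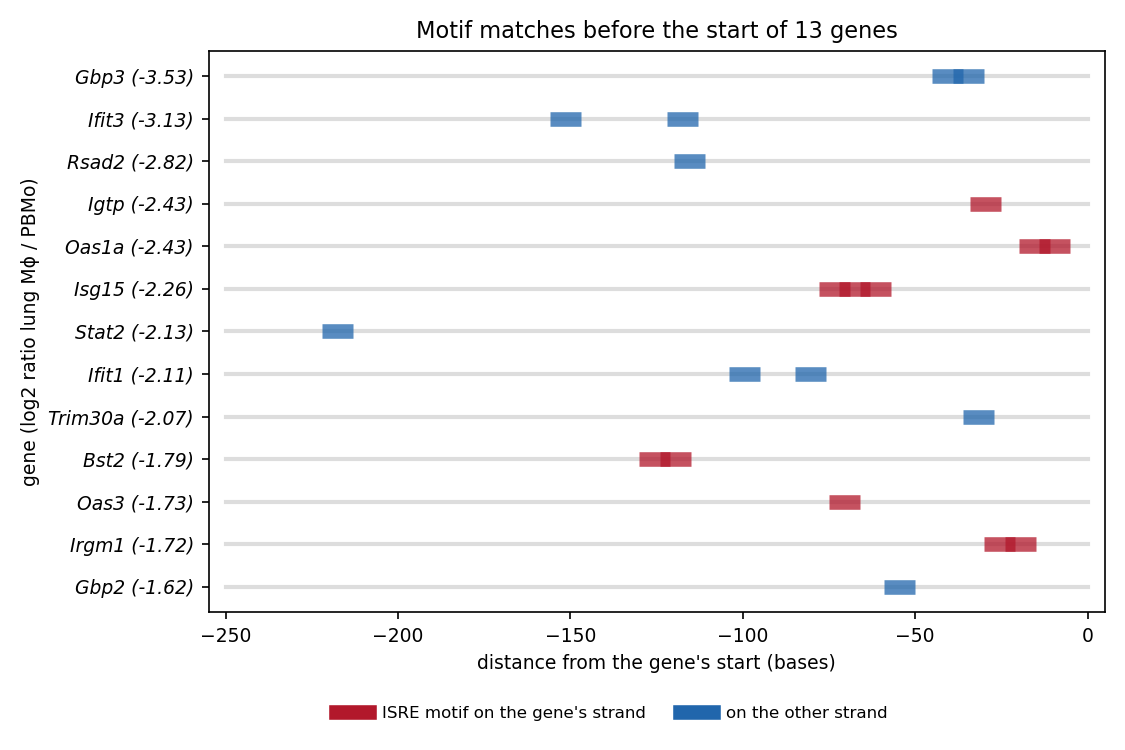
Positions of the ISRE motif (bars, coloured by strand) in the 250 bases before the start (x axis, bases) of the 13 interferon-stimulated genes with a match, ordered by the log2 ratio of lung Mϕ to PBMo given beside each name. The bars lie between 222 bases (Stat2) and 5 bases (Oas1a) before the start.

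Among the regulators, Irf7 was the lowest. Irf7, the factor that amplifies the induction of type I interferons, had log2 ratios of -4.12 in Mϕ/PBMo, -1.25 in DC/PBMo and -2.87 in Mϕ/DC, from 1 probe. This was 17.4-fold lower in lung Mϕ and 2.38-fold lower in lung DC than in PBMo, and ranked Irf7 at place 16 from the lowest of all genes in Mϕ/PBMo. For the genes that follow the ratios are given in the same order. Stat2, the subunit that carries the activation domain of the complex that binds the ISRE, had -2.13, -0.82 and -1.30. Irf9, its DNA-binding subunit, had -1.44, -0.41 and -1.03, but its probes differed. The probe pair of Irf9 gave -2.26 and -0.61 in Mϕ/PBMo, and -0.43 and -0.39 in DC/PBMo. Irf1, a factor induced mainly by interferon gamma, stood apart from the other regulators, with means of -0.28, 0.34 and -0.61, all within 2-fold. In Mϕ/DC its RefSeq probes gave -0.84 and -1.10, and its other probe 0.11.

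Ddx58, Ifih1, Dhx58 and Eif2ak2, of the sensors of cytosolic RNA, were among the 7 genes of the set closest to 0 in Mϕ/PBMo by the mean of their probes. For Dhx58 this place rests on a probe at -0.06, as its RefSeq probe had -2.33 in Mϕ/PBMo. In DC/PBMo, by contrast, Ifih1 lay below the median of the set. All 4 were within 2-fold in Mϕ/DC. Ddx58, which encodes RIG-I, had -0.78 in Mϕ/PBMo, -0.82 in DC/PBMo and 0.04 in Mϕ/DC. Ifih1, which encodes the sensor of long double-stranded RNA, had -1.16, -1.11 and -0.05. Both lung populations were thus about as low as each other for these sensors. Dhx58, a relative of both that lacks the signalling domain, had -1.19, -0.82 and -0.37, and Eif2ak2, the kinase PKR that stops translation, had -1.07, -0.71 and -0.36. Zbp1, a sensor of Z-form nucleic acid that can trigger cell death, differed from these, with -2.89, -0.94 and -1.95.

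All 5 oligoadenylate synthetases were more than 2-fold lower in Mϕ/PBMo. These proteins sense double-stranded RNA and make the messenger that activates RNase L, except Oasl1, which lacks the enzyme activity and is known to restrain translation of Irf7. In Mϕ/PBMo the values ran from -2.53 for Oasl2 to -1.73 for Oas3, with Oas1a at -2.43, Oas2 at -2.39 and Oasl1 at -2.35. In DC/PBMo they ran from -1.13 for Oas2 to -0.84 for Oasl1, so that 2 of the 5 were past 2-fold. Between the lung populations 4 of the 5 were lower in lung Mϕ, with Oas3 at -0.76 within 2-fold. The probes of Oas2 differed, at -3.96 and -0.82 in Mϕ/PBMo. Oas1a has close relatives on the array, Oas1b and Oas1g, which had -0.53 and -0.33 in that comparison, and cross-hybridization between them was not tested.

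The Ifit genes were the role whose members were all more than 2-fold lower in lung DC as well. These proteins bind viral RNA ends and block its translation. Ifit3 had -3.13 in Mϕ/PBMo, -1.21 in DC/PBMo and -1.92 in Mϕ/DC. Ifit2 had -2.30, -1.5 and -0.80, and Ifit1 had -2.11, -1.27 and -0.83. Ifit2 and Ifit3 are neighbours on the chromosome, yet between the lung populations Ifit3 was past 2-fold and Ifit2 was not. Ifit3 has a near-identical copy in the mouse, so its probe may read both.

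Other antiviral effectors were lower in Mϕ/PBMo without exception, 6 of 6 past 2-fold. Mx2, a dynamin-like GTPase, had -3.63 in Mϕ/PBMo, -1.47 in DC/PBMo and -2.15 in Mϕ/DC. Mx1, which carries an inactivating deletion in C57BL/6 mice and most other inbred strains, had -2.76, -1.12 and -1.63. Rsad2, the enzyme viperin that makes a chain-terminating nucleotide, had -2.82, -1.43 and -1.39, and Isg20, an RNA exonuclease, had -2.55, -1.20 and -1.35. These 4 were more than 2-fold lower in each comparison. Bst2, which tethers budding virions and also marks plasmacytoid DC, had -1.79, -0.34 and -1.45, so that lung DC were within 2-fold of PBMo. Samd9l, a cytoplasmic antiviral factor, had -1.69, -0.88 and -0.81.

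In the group of ISG15, ubiquitin and ADP-ribose enzymes, the genes went from among the lowest to the highest of the set. Usp18, the protease that removes ISG15 and damps the type I receptor, had -3.50 in Mϕ/PBMo, -1.11 in DC/PBMo and -2.40 in Mϕ/DC. Isg15, the ubiquitin-like modifier itself, had -2.26, -1.13 and -1.13, which puts lung DC midway on the log2 scale. Trim30a, a regulator of Toll-like receptor signalling, had -2.07, -0.95 and -1.12, and Parp14, an ADP-ribosyl transferase, had -1.70, -0.80 and -0.90. Parp9, its neighbour on the chromosome and a binding partner of Dtx3l, lay within 2-fold as the mean of its probes, with -0.54, -0.37 and -0.17. Its RefSeq probe alone was past 2-fold lower in Mϕ/PBMo, at -1.07, and its other probe had -0.01. Trim25, the ubiquitin ligase that helps activate RIG-I, was the single gene of the set above 0 in lung Mϕ, with 0.66, 0.28 and 0.39. Its 3 probes ranged from 0.10 to 1.45 in Mϕ/PBMo.

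Interferon-induced GTPases act on the vacuoles of intracellular bacteria and parasites and answer chiefly to interferon gamma. All 4 were more than 2-fold lower in Mϕ/PBMo. Gbp3 had -3.53 in Mϕ/PBMo, -1.43 in DC/PBMo and -2.10 in Mϕ/DC. Igtp, also named Irgm3, had -2.43, -1.38 and -1.05, and Irgm1 had -1.72, -0.93 and -0.79. Gbp2, a close neighbour of Gbp3 on the chromosome, had -1.62, -0.64 and -0.99 and was the least low of the 4 in each of the comparisons with PBMo.

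Rtp4 and Ifi27l2a were the lowest of the whole set in each comparison with PBMo. Rtp4, a chaperone that brings receptors to the cell surface, had -5.16 in Mϕ/PBMo, -2.25 in DC/PBMo and -2.91 in Mϕ/DC, or 35.8-fold, 4.76-fold and 7.53-fold lower. It was the gene at place 8 from the lowest of all genes in Mϕ/PBMo. Ifi27l2a, a small hydrophobic protein, had -4.53, -2.04 and -2.49, and its pair of probes gave -5.13 and -3.92 in Mϕ/PBMo. Xaf1, which antagonises an inhibitor of apoptosis, had -3.12, -1.56 and -1.56, again with lung DC midway. Ifi35, a partner of Nmi, had -1.21, -0.58 and -0.63.

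The probes of a gene did not always carry the same ratio. Of the 18 genes with more than 1 probe, 12 had probes more than 1 apart on the log2 scale in Mϕ/PBMo, and the median SD over the 18 was 0.822. The same SD was 0.0501 among 218 transcripts covered by 8 or more probes, but whether those probes repeat the same sequence was not tested. The largest range was that of Oasl2, whose RefSeq probe had -4.99 in Mϕ/PBMo and -1.91 in DC/PBMo, while its other probe, designed on another accession, had -0.07 and -0.08. Irgm1 had -2.67, -2.44 and -0.06 in Mϕ/PBMo, the last from such a probe, and Dhx58 had -2.33 and -0.06. Parp9 had -1.07 and -0.01, again with the value near 0 from such a probe. Among genes with RefSeq probes alone, Rsad2 had -4.23, -2.15 and -2.08, Parp14 -2.27, -2.24 and -0.60, Mx1 -3.32 and -2.20, and Ifit2 -2.97 and -1.62. In each of these the probes share the direction and differ in size. Over the 53 probes of RefSeq mRNAs, 43 were more than 2-fold lower in Mϕ/PBMo and 29 in DC/PBMo. By gene, with RefSeq probes alone, 32 of 35 genes of the set were lower in Mϕ/PBMo and 20 of 35 in DC/PBMo. The shares of all genes, counted likewise, were 5.06% and 1.28%. For the 6 genes with a RefSeq probe and a probe of another accession, namely Dhx58, Irf1, Irgm1, Oasl2, Parp9 and Trim25, the mean is smaller in size than that of the RefSeq probes alone.

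**Figure D4:**
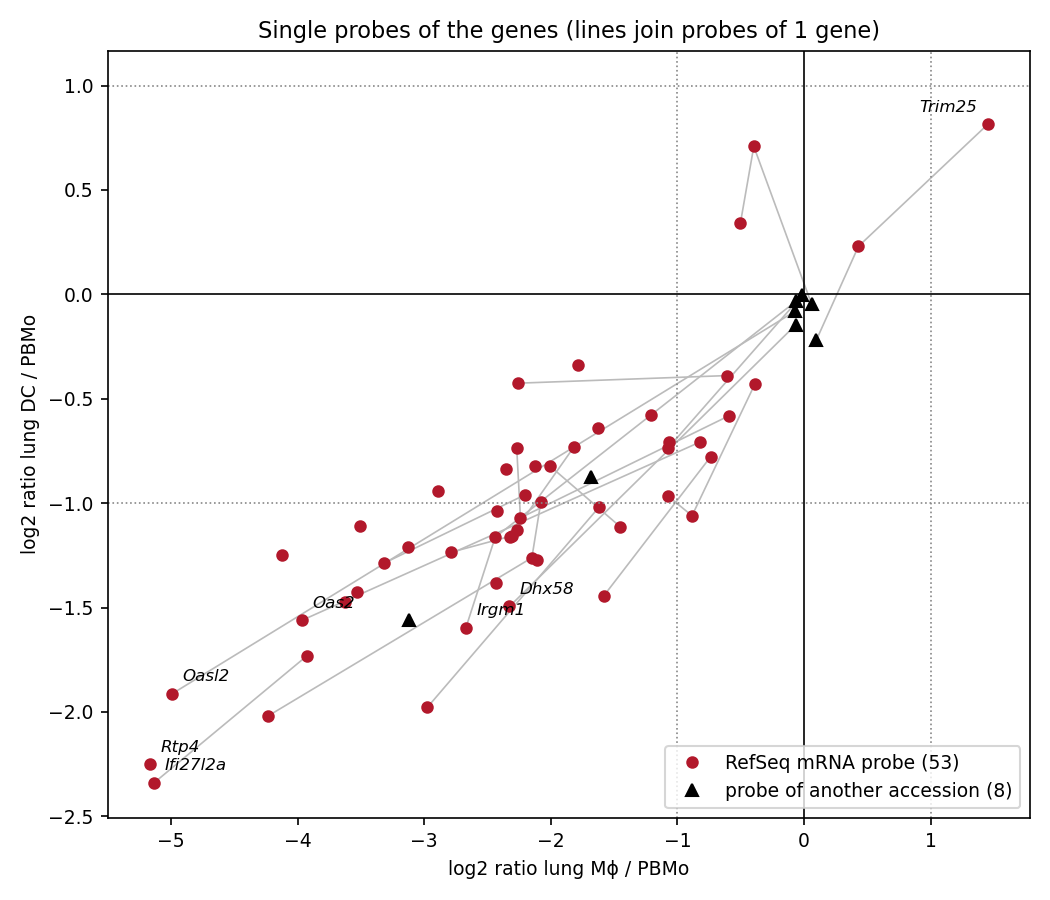
Log2 ratio of lung Mϕ to PBMo (x axis) and of lung DC to PBMo (y axis) for each of the 61 probes, with lines joining the probes of 1 gene. Most RefSeq probes (red) lie in the lower left, whereas 6 of the 8 probes of other accessions (black) lie close to 0 on both axes.

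The receptor chains for type I interferons and interferon gamma were lower in lung Mϕ too, whereas the interferons themselves lay mostly near 0. Ifnar1 and Ifnar2, which form the type I receptor, had log2 ratios of -1.09 and -1.42 in Mϕ/PBMo and -0.15 and -0.43 in DC/PBMo. Ifngr1 and Ifngr2, the chains of the interferon gamma receptor, had -2.01 and -1.37 in lung Mϕ and -0.54 and -0.46 in lung DC. Of 15 genes of receptors and Jak-Stat signalling, these 4 were the ones lower in Mϕ/PBMo and none was higher. In DC/PBMo 3 were past 2-fold higher and none lower, namely Ifnlr1, the receptor chain for interferon lambda, at 1.58, which had 0.42 in Mϕ/PBMo, and the feedback inhibitors Socs1 at 1.24 and Socs3 at 1.36. Socs3 is also on the list of dissociation response genes. Of 15 interferon genes, Ifnb1, the interferon beta, was higher in both lung populations than in PBMo, at 1.35 and 1.5, and the ratios of 9 interferon alpha genes ran from -0.13 to 0.50 across these comparisons. Ifng, interferon gamma, had -1.49 in Mϕ/PBMo and 2.45 in DC/PBMo, in the same directions as the NK cell markers, with medians of -2.21 and 1.14. Of 17 genes of the pathways that induce interferons, 4 were lower in Mϕ/PBMo and 1 was higher. Over all genes 4.49% were lower and 5.47% higher in that ratio, and 1.09% and 4.02% in DC/PBMo. Irf5, a factor downstream of Toll-like receptors, had -2.74 in lung Mϕ and -0.68 in lung DC, Irf3, the factor that starts interferon induction, had -0.19 and 0.14, and the adaptor Mavs had 1.80 and 0.36. Irf8, a lineage factor of monocytes and DC, had -1.20 and 0.51.

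Genes induced by interferons outside the set were mostly lower as well, with some exceptions. Of 76 further interferon-induced genes measured, 45 were more than 2-fold lower in Mϕ/PBMo and 2 were higher, with a median of -1.18. Of all genes, 4.49% were lower and 5.47% higher in this ratio. In DC/PBMo 17 of the 76 were lower and 5 higher, with a median of -0.55, where 1.09% of all genes were lower and 4.02% higher. Between the lung populations 30 of the 76 were lower in lung Mϕ and none was higher, against 4.52% and 2.74% of all genes. The list includes Plac8, at -6.59 in Mϕ/PBMo, and Ly6c2, at -6.32, which is also on the list of classical monocyte markers. The genes that went the other way in lung Mϕ were the chemokine gene Cxcl10, at 2.08, and Cd274, the ligand of PD-1, at 1.23. Their DC/PBMo ratios were 1.49 and 1.03.

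**Figure D5:**
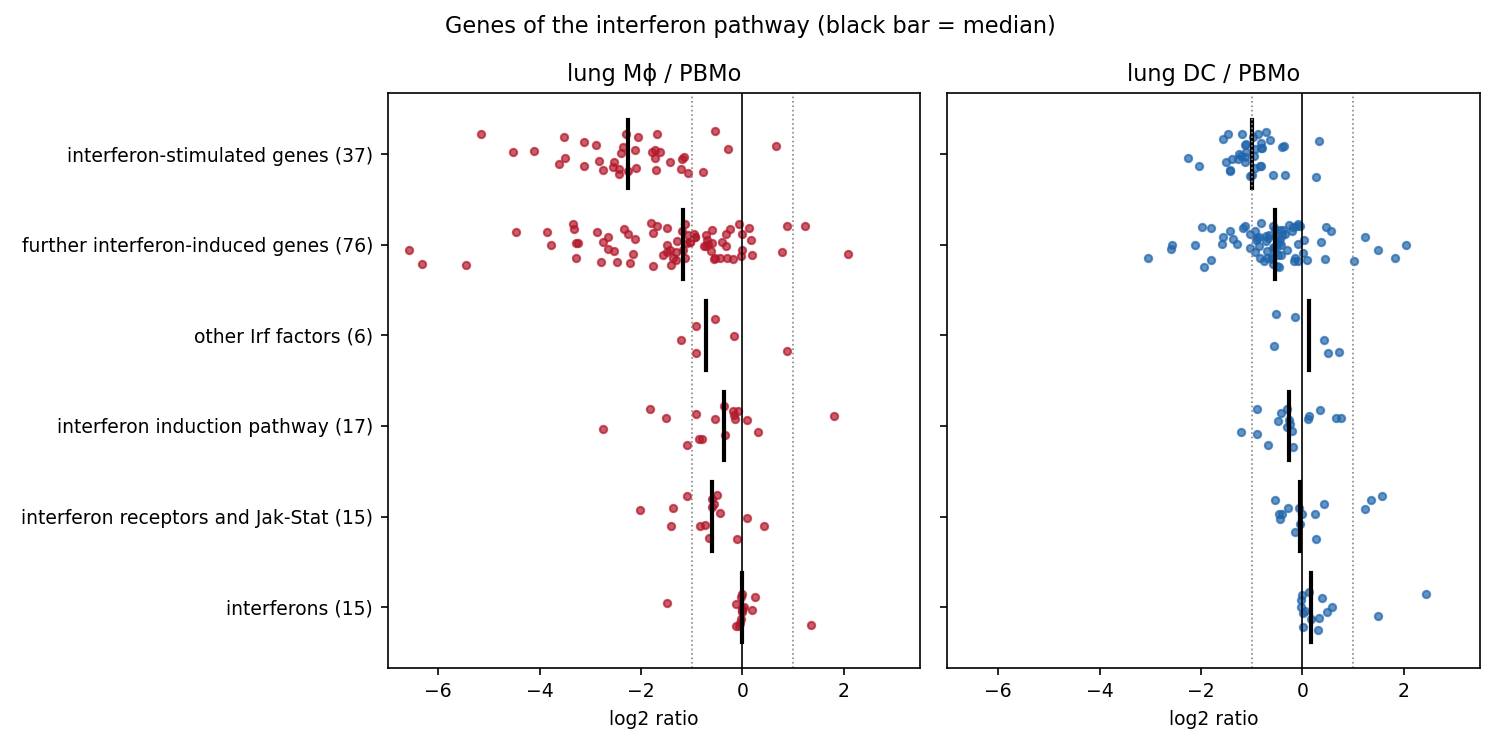
Log2 ratio to PBMo (x axis) of the genes on each interferon pathway list (y axis, number of genes in parentheses), for lung Mϕ (left) and lung DC (right); each point is 1 gene, the black bar the median and the dotted lines 2-fold. The interferon-stimulated genes have medians of -2.26 and -1.0, and the further interferon-induced genes -1.18 and -0.55. Of the 15 interferons, 13 lie within 2-fold in each panel, with Ifnb1 and Ifng outside.

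Markers of other cells differed along with the set. Over all genes, 4.49% were lower and 5.47% higher in Mϕ/PBMo, 1.09% and 4.02% in DC/PBMo, and 4.52% and 2.74% in Mϕ/DC. The alveolar macrophage markers were higher in Mϕ/DC for 16 of 18 (median 2.06) and in DC/PBMo for 15 of 18. Of 12 classical monocyte markers, 8 were lower in lung Mϕ and 10 in lung DC than in PBMo, with medians of -3.21 and -2.36. Of 13 patrolling monocyte markers, 11 were lower in lung Mϕ and none in lung DC, with medians of -2.28 and -0.28. Platelet markers were lower than in PBMo for 7 of 12 genes in lung Mϕ and for 5 of 12 in lung DC. The NK cell markers were lower in Mϕ/PBMo for 15 of 18 genes and in Mϕ/DC for 17 of 18. Of 13 plasmacytoid DC markers, 7 were higher and none lower in DC/PBMo (median 1.03). Irf7 and Bst2, both known to be high in those cells, were not higher in that ratio. In Mϕ/DC 9 of the 13 markers were lower and none higher, and Irf7 and Bst2 were lower too, at -2.87 and -1.45. Without Irf7 and Bst2, 31 of 35 genes of the set were lower in Mϕ/PBMo, 17 of 35 in DC/PBMo and 20 of 35 in Mϕ/DC. T cell markers were higher for 8 of 14 genes in DC/PBMo and lower for none, with a median of 1.37, and lung epithelial and stromal markers for 6 of 13 in DC/PBMo and 4 of 13 in Mϕ/PBMo with none lower. B cell markers were lower for 4 of 12 genes in Mϕ/PBMo and higher for 1 in each ratio to PBMo. Response genes of dissociation and early activation, 29 in all, were higher for 13 and lower for none in DC/PBMo, and higher for 6 and lower for 4 in Mϕ/PBMo. Their part in the ratios of the interferon-stimulated genes was not tested. Digestion with collagenase went with the lung populations only, so that preparation and cell type cannot be told apart in the comparisons with PBMo.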

How the data were processed

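Total RNA of the sorted cells was amplified, labelled with Cy3 or Cy5 and hybridized to 2-colour Agilent mouse arrays. As the authors describe, the spots were read with GenePix, weighted by intensity, homogeneity and saturation, background-corrected with an offset added, LOESS-normalized and fitted with limma, whose version is not given in the sources used here. The deposited log2 ratios are used without further scaling, and their direction follows the sample titles. The sources do not say whether the columns were centred after LOESS. Signal over background was not analysed here, so a ratio near 0 can be a gene at background in each cell type, and the number of arrays limits the precision.

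Of 45220 spots, 33653 had 1 gene symbol and 56 several, which entered no gene. By gene number 33517 probes matched RefSeq and none changed its symbol. The spot order was chosen from the values, as the layout in which probes of the same accession agree best. Chosen on 2949 transcripts, it gave a share of 0.916 between transcripts on the 2950 left out, and row numbers taken as they stand gave 0.389. A gene is the mean of its probes. With 1 ratio for each pair, the calls are counts past 2-fold beside the same count over all genes. The search and the counts were tested on simulated data. The members and lists were chosen with earlier results of these data known.

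Genes named are all members, receptors and Irf factors fixed in advance, and at most 6 genes of any other list, those farthest from 0 in the ratio at hand. Oas1b, Oas1g, Cxcl10 and Cd274 were named after their values had been seen, as were the families in the closing section. Alternatives were the median or the largest of the probes, RefSeq probes alone, centred columns, a spot order chosen without the members, the set without close paralogs or without Bst2 and Irf7, and thresholds of 1.5-fold and 4-fold. Python 3.11.15, numpy 2.4.6, pandas 2.3.3 and matplotlib 3.10.9 were used.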

Additional observations from a re-analysis of the deposited data

Results flagged for a closer look

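Ifng, interferon gamma, and Ccl5, a chemokine, were on opposite sides of PBMo in the lung populations, both past 2-fold. Ifng had -1.49 in Mϕ/PBMo and 2.45 in DC/PBMo on the log2 scale, and its 11 probes ranged from -2.25 to -1.33 and from 2.31 to 3.06. Ccl5 had -2.75 and 2.04. The difference between the lung populations was not tested, as the values hold no replicates. The 18 NK cell markers, Ccl5 among them, had medians of -2.21 and 1.14 in the same ratios, and their part was not tested.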

How the results depend on the processing

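Among 48 recomputed values no median changed sign, whereas the counts take both directions together and cannot show a change of direction. In Mϕ/PBMo 1 gene of the set was called higher with the probe of the largest ratio, and 1 at 1.5-fold. Of the 48 values, 36 stayed within 1.5 times for counts, or within the median SD between probes of transcripts with at least 8 probes for medians. With the probe of the largest ratio, the medians of the set were -2.35 in Mϕ/PBMo, -1.16 in DC/PBMo and -1.39 in Mϕ/DC. With RefSeq probes alone the medians against PBMo were -2.33 and -1.11. Without the genes with near-identical paralogs the medians were -1.79, -0.94 and -0.90. Of those 27 genes, 13 were lower in lung Mϕ than in lung DC, against 4.52% of all genes. In DC/PBMo, where many genes lie near the threshold, 31 of 37 were past 1.5-fold, all lower, against 3.8% of all genes lower. Past 4-fold were 2 of 37, against 0.157% of all genes lower. In Mϕ/DC 6 of 37 were past 4-fold, against 1.33% of all genes lower. No paired analysis was possible because the deposited columns are contrasts over the arrays and hold no replicate. Genes with 1 probe, 19 of the 37, have no check within the gene.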

Other observations

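Families on the list of further interferon-induced genes, chosen after their values had been seen, were uneven. The share of all genes more than 2-fold lower was 4.49% in Mϕ/PBMo and 1.09% in DC/PBMo. All 4 Ifitm genes, which keep enveloped viruses from fusing, were more than 2-fold lower in Mϕ/PBMo, and 2 of them in DC/PBMo. On the log2 scale Ifitm6 had -5.45 in Mϕ/PBMo, Ifitm3 -4.46, Ifitm2 -2.87 and Ifitm1 -1.80. In DC/PBMo they had -1.97, -1.36, -0.76 and 0.47. Of 6 Schlafen genes, known as regulators of growth and translation in leukocytes, 5 were lower in Mϕ/PBMo and 3 in DC/PBMo. Slfn5 had -3.85 in Mϕ/PBMo and -1.80 in DC/PBMo, Slfn4 -3.24 and -3.04, Slfn1 -2.78 and -2.12, Slfn9 -1.76 and -0.93, Slfn8 -1.42 and -0.86, and Slfn2 -0.32 and -0.39. Slfn4 was about as low in lung DC as in lung Mϕ. Of 5 DNA-binding proteins with a pyrin domain, 4 were lower in Mϕ/PBMo and 2 in DC/PBMo. Ifi204 had -3.33 and -1.80, Ifi209 -3.29 and -1.43, Ifi205 -2.11 and -0.44, Ifi203 -1.30 and -0.47, and Aim2, the inflammasome sensor of DNA, 0.16 and -0.05. Some of these means join probes far apart. The 3 probes of Ifi205 ranged from -4.34 to -0.09 in Mϕ/PBMo and from -1.34 to 0.02 in DC/PBMo. Those of Slfn5 ranged from -5.36 to -2.35 in Mϕ/PBMo. Of 4 further guanylate-binding proteins, Gbp5 and Gbp4 had -1.69 and -1.03 in Mϕ/PBMo, whereas Gbp6 and Gbp7 had -0.30 and -0.25. None of the 3 chemokine ligands of Cxcr3 was lower in Mϕ/PBMo, with Cxcl10 at 2.08, Cxcl11 at 0.18 and Cxcl9 at 0.14.

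Of 8 probes of the set designed on accessions other than RefSeq mRNAs, 6 stand beside a RefSeq probe of the same gene. All 6 had ratios between -0.22 and 0.32 in each of the 3 comparisons, in the genes Dhx58, Irf1, Irgm1, Oasl2, Parp9 and Trim25. The other 2, the only probes of Xaf1 and Samd9l, had -3.12 and -1.69 in Mϕ/PBMo. The cause was not tested.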
